A study of Mus musculus with 9 samples.

Results

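The nuclear receptor coactivators and corepressors followed here were 9 genes, Ncoa1, Ncoa2, Ncoa3, Crebbp, Med1, Ppargc1a, Ppargc1b, Nrip1 and Ncor1, taken by gene symbol from the 19094 genes in the deposited tables. All 9 passed the filter on low counts, which left 13154 genes for testing. They were measured by RNA-seq in murine 3T3-L1 cells, a fibroblast-like preadipocyte line that stores lipid after hormonal induction, on day 0, day 4 and day 8, with 3 samples a day. The day 0 samples were nearly confluent preadipocytes before induction. The day 4 samples had received dexamethasone, IBMX and insulin and then medium with insulin alone, and the day 8 samples had a further 4 days in insulin medium. All 3 groups were cells of 1 line in the same basal medium with serum, and no genetic change is named for any. In what follows FPKM means are given ± SD of 3 samples and log2 fold changes ± SE. Each sample held between 18216114 and 20452144 expected counts, the estimated reads assigned to genes.

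The labels name 3T3-L1 cells, but their extraction text mentions dorsal root ganglia, so markers of both were examined. The summed level of 9 adipocyte markers was 144.2 to 149.1 FPKM (fragments scaled to transcript length and library size) on day 0, 6162 to 8835 on day 4 and 9149 to 9967 on day 8. Lpl was the most abundant of them on day 0, at 117.1 ± 3.95 FPKM, and Fabp4 later, at 4052 ± 777 and 4828 ± 152 FPKM. The 8 preadipocyte or fibroblast markers summed to 3878 to 4130 FPKM on day 0, 1900 to 2094 on day 4 and 3373 to 3421 on day 8. Col1a1 was the most abundant on each day, at 1540 ± 39, 1299 ± 59 and 2270 ± 18.3 FPKM. From day 0 to day 8, 4 of the 8 were called lower and 3 higher (edgeR), against 36.2% and 34.8% of all genes. Past 2-fold 3 were lower, against 7.7% of all genes. The 14 markers of sensory neurons and their glia summed to 4.65 to 4.81 FPKM on day 0 and 2.58 to 2.9 later. Avil was the highest of these on day 0, at 2.32 ± 0.272 FPKM, and was at 0.5133 ± 0.0115 and 0.4833 ± 0.0603 later. Snap25 was the highest on the later days, at 1.117 ± 0.0473 and 1.097 ± 0.0493 FPKM, after 0.02667 ± 0.0462 on day 0, and Pou4f1 was in no table. The 8 leukocyte markers summed to 1.95 to 4.04 FPKM, with Lyz2 highest on day 0 (1.8 ± 0.535 FPKM), Cd68 on day 4 and day 8 (1.303 ± 0.248 and 1.493 ± 0.465), and Cd3e in no table. The 5 endothelial markers summed to 0.24 to 1.08 FPKM, with Vwf highest on day 0 (0.47 ± 0.0954) and Pecam1 later (0.1333 ± 0.0451 and 0.2567 ± 0.0666). In RNA from a whole culture, a change in the share of cells that differentiate and a change in RNA per cell cannot be told apart. In the early phase all 9 adipocyte markers were called higher, and 7 of the 8 preadipocyte or fibroblast markers were called lower and 1 higher (edgeR), against 35.5% of all genes called higher and 33.7% called lower. Single markers of the other lists moved as well. The part of these markers in the results was not tested. The cells of each stage were pooled before extraction and the labels do not name separate cultures, so the p-values measure the spread between these samples, which may be technical.

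Nuclear receptors such as PPAR-gamma bind DNA and act through proteins that do not bind DNA themselves. Coactivators (the p160 proteins, CBP, the PGC-1 proteins and the Mediator subunit MED1) bring acetyltransferases or RNA polymerase II to the receptor, while corepressors (NCoR and RIP140) bring deacetylases. In adipose cells they are known for tuning the PPAR-gamma programme and the balance of lipid storage and mitochondrial oxidation.

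In the early phase (day 4 against day 0) Ncoa1, Nrip1 and Ppargc1b were upregulated, and Ncoa2, Ncoa3, Crebbp, Med1, Ppargc1a and Ncor1 were downregulated (edgeR quasi-likelihood test, adjusted p under 0.05). Of all genes tested, 35.5% rose and 33.7% fell, so a change in this phase was common. Past 2-fold there were 2 risers among the 9, Nrip1 and Ppargc1b, and no gene that fell, against 9.77% and 7.98% of all genes. In the late phase (day 8 against day 4) Ncoa1, Ncor1 and Ppargc1a rose and Crebbp, Ncoa3 and Nrip1 fell, against 22.5% and 22.7% of all genes. None of the 9 passed 2-fold by edgeR in that phase, against 4.24% of all genes upward and 2.81% downward. Ppargc1a lay at the limit, and DESeq2 counted it as past 2-fold.

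Over the whole process (day 8 against day 0) Ncoa1, Nrip1, Ppargc1a and Ppargc1b ended higher and Crebbp, Med1, Ncoa2 and Ncoa3 ended lower, where 34.8% of all genes rose and 36.2% fell. Ncoa1 and Ppargc1b passed 2-fold upward and none did downward, against 10.3% and 7.7% of all genes. The median size of the change, without its sign, was 0.62 on the log2 scale over the 9 genes and 0.39 over all genes tested. It was 0.47 against 0.37 in the early phase and 0.22 against 0.20 in the late phase. The 3 comparisons share samples (day 4 enters both phases and day 0 and day 8 enter 2 comparisons each), so they are not separate measurements.

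**Figure D1:**
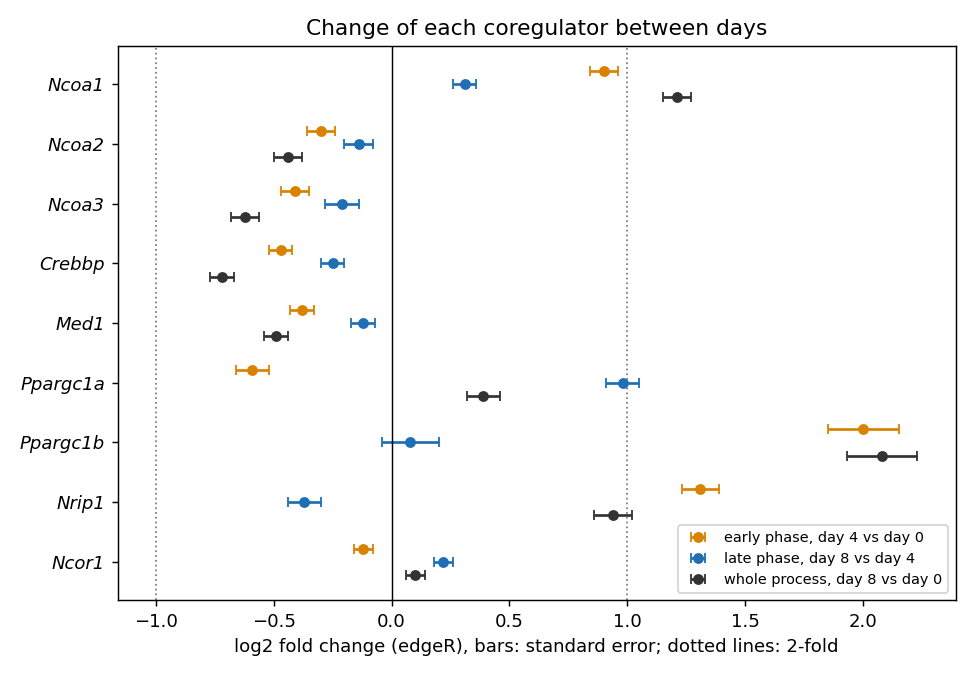
The log2 fold change of each of the 9 genes (horizontal axis, edgeR) is shown for the early phase, the late phase and the whole process, with bars for the standard error and dotted lines at 2-fold. Ppargc1b lies farthest to the right at 2.0 and 2.08, Ppargc1a and Ncor1 change sign between the early and the late phase from lower to higher, and Nrip1 from higher to lower.

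Day 4 was also set against the mean of day 0 and day 8, to show which genes turned. By this contrast 3 of the 9 were above the mean of both ends (Ncoa1, Nrip1 and Ppargc1b), against 30.4% of all genes, and 4 were below it (Crebbp, Med1, Ncor1 and Ppargc1a), against 26.2%. The call of Crebbp held in 9 of 17 alternatives and that of Med1 in 14 of 17. Nrip1 had all its day 4 values above those of both other days, and Ppargc1a and Ncor1 had all theirs below. Days without overlap were common, here and in the courses of single genes that follow. In CPM (counts scaled to library size) 72.3% of all genes tested had no overlap between day 0 and day 4, 54.5% between day 4 and day 8, and 75.5% between day 0 and day 8. Ncoa1 and Ppargc1b took most of their rise in the early phase, and Crebbp and Med1 most of their fall, without a turn.

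The p160 coactivators were examined first. Ncoa1 (SRC-1), a p160 protein that docks CBP and p300 on liganded receptors, was at 6.59, 6.44 and 6.93 FPKM on day 0, at 11.24, 11.79 and 12.54 on day 4, and at 13.58, 14.46 and 14.63 on day 8. No value of one day overlapped another day, and every step was upward. The change was 0.90 ± 0.06 on the log2 scale in the early phase (SE, n = 3 a day, edgeR adjusted p = 5.6e-10). It was 0.31 ± 0.05 in the late phase (edgeR adjusted p = 2.1e-04) and 1.21 ± 0.06 over the whole process (edgeR adjusted p = 1.3e-11), a 2.31-fold rise.

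Both paralogs of Ncoa1 moved the other way. Ncoa2 (SRC-2 or TIF2), a p160 coactivator known in white fat for its part in lipid storage, was at 10.31, 10.17 and 10.20 FPKM on day 0. Its values were 8.61, 7.80 and 7.40 on day 4 and 6.76, 7.22 and 7.01 on day 8. All day 0 samples were above all later samples, and the fall was 0.30 ± 0.06 early and 0.44 ± 0.06 over the whole process on the log2 scale (edgeR adjusted p = 2.0e-04 and 4.2e-06). The late-phase value was -0.14 ± 0.06 and did not pass (edgeR adjusted p = 0.0663).

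Ncoa3 (SRC-3), the third p160 protein, was at 11.23, 10.94 and 10.96 FPKM on day 0, at 8.37, 8.29 and 7.15 on day 4, and at 6.93, 6.16 and 6.86 on day 8. The lowest day 4 sample came near the highest day 8 sample, and in CPM these 2 days overlapped. The gene fell by 0.41 ± 0.06 early, 0.21 ± 0.07 late and 0.62 ± 0.06 over the whole process on the log2 scale (edgeR adjusted p = 3.1e-05, 0.016 and 3.1e-07). The late call rests on single samples: without day 4 replicate 2 the adjusted p was 0.136.

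The 3 p160 genes were also summed. In FPKM the sum was 27.9 ± 0.324 FPKM on day 0, 27.7 ± 0.58 on day 4 and 27.9 ± 0.616 on day 8 (SD, n = 3), and the values of the 3 days overlapped. In CPM per kilobase, with TMM scaling and added after the data were seen, day 8 (28.3 to 30.2) lay above day 0 (26.6 to 27.4), so whether the sum rose depends on the scale. The makeup of the sum moved. Ncoa1 made up 23.8% ± 0.733 of the sum on day 0, 42.8% ± 3.26 on day 4 and 51% ± 1.1 on day 8. Ncoa2 went from 36.6% ± 0.302 through 28.6% ± 1.69 to 25.1% ± 0.723, and Ncoa3 from 39.5% ± 0.473 through 28.6% ± 1.91 to 23.9% ± 1.65. Ncoa1 was thus the least abundant of the 3 in every day 0 sample and the most abundant in every day 4 and day 8 sample.

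**Figure D2:**
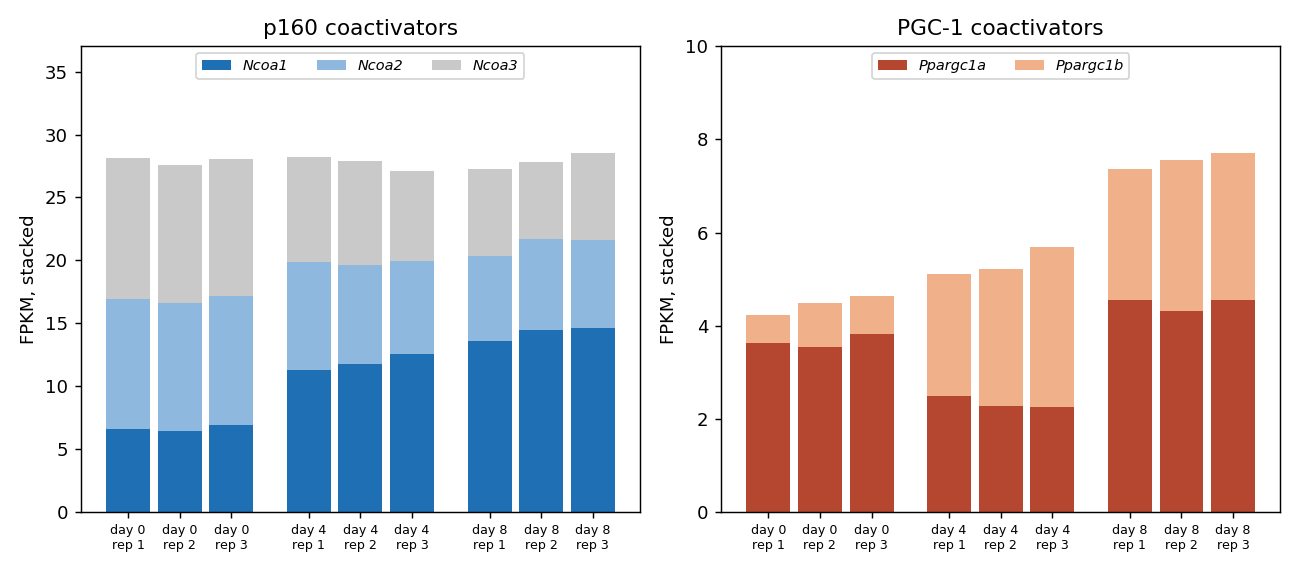
Stacked bars, grouped by day, give FPKM in each of the 9 samples for the p160 genes (left) and for Ppargc1a and Ppargc1b (PGC-1, right). The p160 bars keep a height between 27.1 and 28.5 while the Ncoa1 block grows, and the PGC-1 bars grow from between 4.23 and 4.64 on day 0 to between 7.37 and 7.7 on day 8.

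Crebbp (CBP), the acetyltransferase that the p160 proteins recruit, was at 15.19, 15.26 and 15.28 FPKM on day 0, at 10.88, 10.78 and 9.93 on day 4, and at 9.02, 8.38 and 8.37 on day 8. The 3 days did not overlap, and the SD of the day 0 samples was 0.0473 FPKM. Crebbp fell by 0.47 ± 0.05 early, 0.25 ± 0.05 late and 0.72 ± 0.05 over the whole process on the log2 scale (edgeR adjusted p = 3.6e-07, 8.0e-04 and 2.1e-09). Its paralog Ep300 (p300) went from 21.28 ± 0.307 through 15.04 ± 1.21 to 11.43 ± 0.312 FPKM. Ep300 fell by 0.78 ± 0.06 on the log2 scale over the whole process (edgeR adjusted p = 2.6e-09).

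Ncoa1, Ncoa2, Ncoa3 and Crebbp belong to a list of 10 p160 coactivators and acetyl- or methyltransferase partners, all tested. In the early phase 2 of the 10 rose, Ncoa1 and the acetyltransferase gene Kat2b (PCAF), and 6 fell, against 35.5% and 33.7% of all genes. The median of the list was -0.19 on the log2 scale, against 0.02 over all genes. Over the whole process the count was again 2 higher and 6 lower, against 34.8% and 36.2% of all genes, with a median of -0.19 against -0.02. Kat2b went from 10.88 ± 0.279 to 19.94 ± 0.462 FPKM by day 4, a change of 0.91 ± 0.05 on the log2 scale (edgeR adjusted p = 9.2e-11), and was singled out after its values were seen.

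Med1 (TRAP220), the Mediator subunit that PPAR-gamma binds directly, was at 16.98, 16.32 and 15.70 FPKM on day 0, at 13.17, 12.49 and 13.40 on day 4, and at 11.33, 11.85 and 11.55 on day 8. Each day lay wholly below the one before. In counts the fall was 0.38 ± 0.05 early and 0.49 ± 0.05 over the whole process on the log2 scale (edgeR adjusted p = 5.9e-06 and 2.7e-07). The late value of -0.12 ± 0.05 did not pass (edgeR adjusted p = 0.0796). The table lists 3 transcripts for Med1, and the mean length that RSEM weighted by their shares was 4990 ± 105 bases on day 0, 4603 ± 135 on day 4 and 4624 ± 96.2 on day 8 (SD, n = 3). All day 0 lengths, from 4883 bases up, were above all later ones, which reached 4740. The lengths of Ncoa1, Ncoa3, Crebbp, Nrip1 and Ppargc1b, with 1 transcript each, could not vary.

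Med1 is 1 of 33 Mediator genes on the list, of which 32 were tested. In the early phase 7 rose and 10 fell, against 35.5% and 33.7% of all genes, and 15 were not called. In the late phase 2 rose and 8 fell, against 22.5% and 22.7%, and over the whole process 6 rose and 11 fell, against 34.8% and 36.2%. In edgeR's test 0 passed 2-fold, against 9.77% of all genes upward and 7.98% downward early, 4.24% and 2.81% late, and 10.3% and 7.7% over the whole process. The list's median change was -0.02 early, -0.05 late and -0.07 from day 0 to day 8 on the log2 scale.

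The PGC-1 coactivators are inducible partners of PPAR and ERR receptors and are known for driving mitochondrial genes. Ppargc1a (PGC-1alpha) was at 3.62, 3.54 and 3.83 FPKM on day 0, at 2.49, 2.28 and 2.26 on day 4, and at 4.56, 4.32 and 4.56 on day 8. Every day 4 sample was below every day 0 sample, and every day 8 sample was above both. The gene fell by 0.59 ± 0.07 early and rose by 0.98 ± 0.07 late on the log2 scale (edgeR adjusted p = 1.7e-06 and 1.1e-08), for a net rise of 0.39 ± 0.07 (edgeR adjusted p = 5.8e-05). Day 4 lay 0.78 ± 0.06 below the mean of the ends (edgeR adjusted p = 2.1e-08).

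Ppargc1b (PGC-1beta) had another course. It was at 0.61, 0.94 and 0.81 FPKM on day 0, at 2.63, 2.94 and 3.42 on day 4, and at 2.81, 3.24 and 3.14 on day 8. Day 0 was far below both later days, which overlapped. It rose by 2.0 ± 0.15 early and 2.08 ± 0.15 over the whole process on the log2 scale (edgeR adjusted p = 5.2e-09 and 3.1e-09), the largest rise of the 9 genes in both comparisons, with a late value of 0.08 ± 0.12 (edgeR adjusted p = 0.64). It was also the gene with the fewest reads, 46 to 63 expected counts per sample on day 0 and 195 to 248 on day 4, which shows in the larger standard error.

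The PGC-1 sum here is that of Ppargc1a and Ppargc1b. It was 4.45 ± 0.207 FPKM on day 0, 5.34 ± 0.299 on day 4 and 7.54 ± 0.166 on day 8. Ppargc1b made up 17.6% ± 3.28 of this sum on day 0, 56% ± 4.43 on day 4 and 40.6% ± 2.37 on day 8, so it exceeded Ppargc1a in all day 4 samples and in no sample of the other days. The third family member, Pprc1 (PRC), is not in this sum. Its level was 21.78 ± 1.75 FPKM on day 0, 14.16 ± 0.837 on day 4 and 13.7 ± 0.537 on day 8. The rise of the sum thus leaves out the most abundant member. Pprc1 fell by 0.55 ± 0.06 early and by 0.56 ± 0.06 over the whole process on the log2 scale (edgeR adjusted p = 6.8e-07 and 6.1e-07).

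Nrip1 (RIP140), a corepressor that binds liganded receptors and is known in adipocytes for restraining oxidative genes, was at 5.83, 6.43 and 7.20 FPKM on day 0. It was at 16.32, 15.02 and 14.73 on day 4, and at 11.22, 12.52 and 10.75 on day 8. Day 4 was the highest, day 8 lay between, and no 2 days overlapped. It rose by 1.31 ± 0.08 early and fell by 0.37 ± 0.07 late on the log2 scale (edgeR adjusted p = 2.4e-10 and 5.8e-04). The net rise was 0.94 ± 0.08 (edgeR adjusted p = 1.9e-08), and day 4 lay 0.84 ± 0.06 above the mean of the ends (edgeR adjusted p = 1.1e-08).

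Ppargc1a was thus lowest on the day when Nrip1 was highest. The log2 ratio of the PGC-1 sum to Nrip1, both in FPKM, was -0.539 ± 0.0869 on day 0, -1.52 ± 0.149 on day 4 and -0.605 ± 0.123 on day 8 (SD, n = 3). The day 4 ratios, from -1.67 to -1.37, were below every ratio of the other days, and those of day 0 and day 8 overlapped. Like the sum, this ratio leaves out Pprc1, the most abundant PGC-1 family member, so it does not describe the whole family. Among the 8 corepressor genes listed with Nrip1, it was the only one called higher in the early phase, against 35.5% of all genes, and Sin3a and Sirt1 were lower, against 33.7%. Over the whole process Nrip1 and Hdac2 were higher and Hdac1, Lcor, Sin3a and Sirt1 lower, against 34.8% and 36.2% of all genes. Ctbp1 and Ctbp2, which RIP140 binds, had whole-process values of 0.08 ± 0.04 and -0.08 ± 0.06 on the log2 scale and passed in none of the 3 comparisons (edgeR adjusted p = 0.127 and 0.22 over the whole process).

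**Figure D3:**
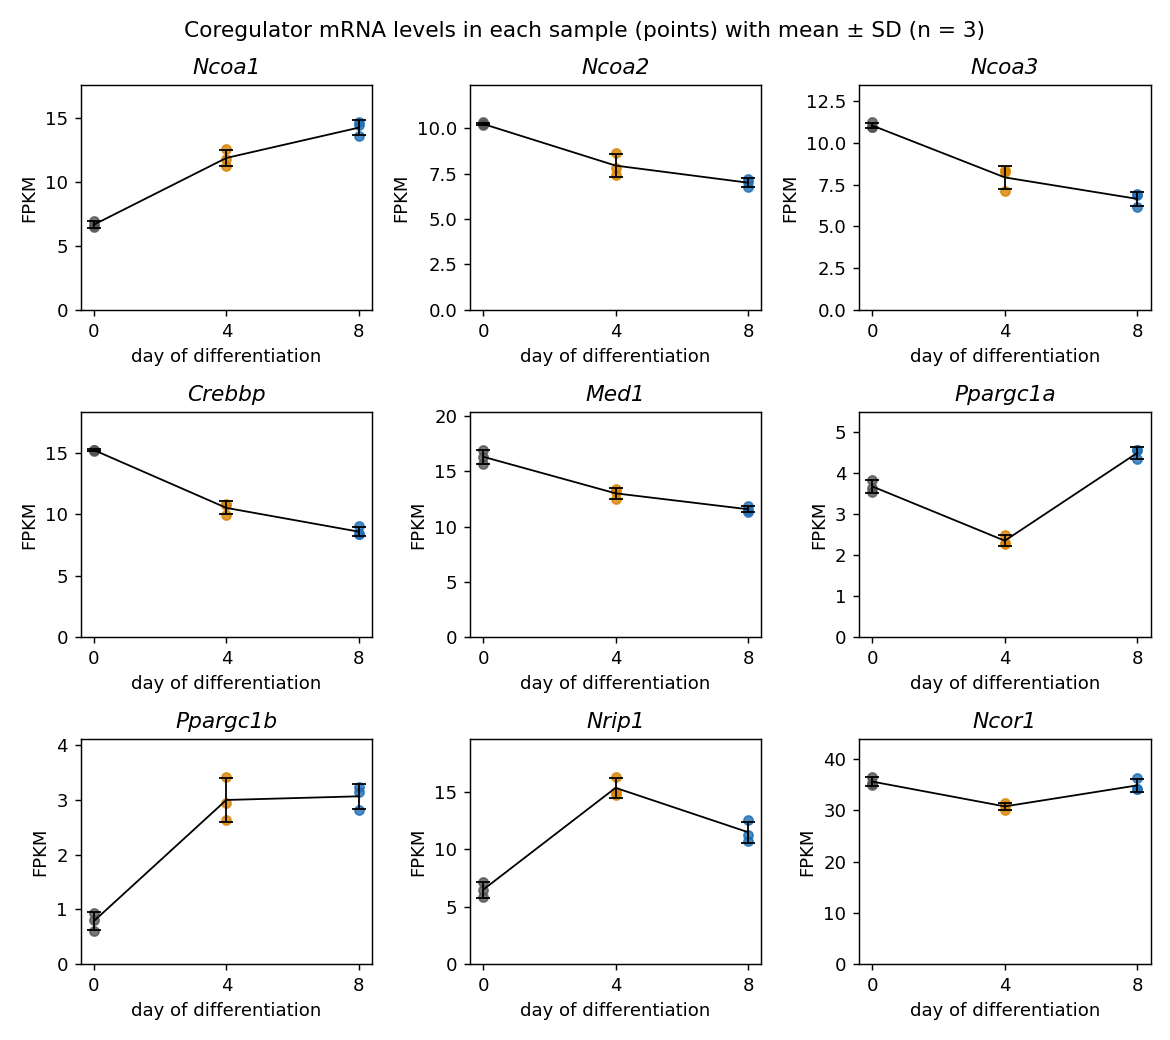
The FPKM of each of the 9 genes is plotted against the day of differentiation, with a point for each sample and the mean and SD of 3 samples in black. Ncoa1 and Ppargc1b climb, Ncoa2, Ncoa3, Crebbp and Med1 descend, Nrip1 peaks on day 4, and Ppargc1a and Ncor1 dip there. Vertical scales start at 0 and differ between genes.

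Ncor1 (NCoR), the scaffold that holds HDAC3 on unliganded receptors, was the most abundant of the 9 on each day and had the smallest change in the early phase. It was at 36.51, 34.89 and 35.31 FPKM on day 0, at 31.36, 29.99 and 30.86 on day 4, and at 34.17, 36.29 and 34.03 on day 8. The day 4 samples lay below all others, and the day 0 and day 8 samples overlapped in FPKM. In CPM day 8 (282.5 to 304) lay above day 0 (266.7 to 277.8). The early change was -0.12 ± 0.04 on the log2 scale (edgeR adjusted p = 0.0282), and the late change was 0.22 ± 0.04 (edgeR adjusted p = 9.7e-04). The whole-process value of 0.10 ± 0.04 did not pass (edgeR adjusted p = 0.0614). Under 19 alternatives it was called higher in 8, among them DESeq2 at 0.11 (adjusted p = 0.0279), and turned to -0.01 where counts were scaled by library size alone. The early call was lost when day 0 replicate 1 was left out (adjusted p = 0.0906). RSEM's mean length for Ncor1, with 3 transcripts, was 7878 ± 65.9 bases on day 0 and 8019 ± 46 on day 4, and the day 4 to day 0 ratio was 0.9215 in CPM.

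The partners of NCoR were called in both directions. Hdac3, the deacetylase of the complex, rose from 46.51 ± 1.13 to 56.74 ± 2.18 FPKM by day 4. Its log2 change was 0.35 ± 0.05 early and 0.34 ± 0.05 over the whole process (edgeR adjusted p = 4.4e-06 and 6.4e-06).

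The WD40 subunits TBL1 and TBLR1, which exchange corepressors for coactivators, parted as well. Tbl1xr1 rose by 0.52 ± 0.05 early on the log2 scale (edgeR adjusted p = 3.2e-07), and Tbl1x fell by 0.25 ± 0.06 (edgeR adjusted p = 0.0013). Gps2 had a whole-process value of -0.07 ± 0.06 (edgeR adjusted p = 0.267) and passed in no comparison. The log2 ratio of the p160 sum to Ncor1, in FPKM, was -0.349 ± 0.0242 on day 0, -0.148 ± 0.0415 on day 4 and -0.321 ± 0.0634 on day 8.

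Ranked by FPKM on day 0, Ncor1 led, followed by Med1, Crebbp, Ncoa3, Ncoa2, Ncoa1, Nrip1, Ppargc1a and Ppargc1b. The ranges of Ncoa1 and Nrip1 overlapped, and no other neighbours did. At day 4 Nrip1 was second, ahead of Med1, Ncoa1, Crebbp, Ncoa2, Ncoa3, Ppargc1b and Ppargc1a, and the ranges of Med1 and Ncoa1 and of Ncoa2 and Ncoa3 overlapped. At day 8 Ncoa1 was second, ahead of Med1, Nrip1, Crebbp, Ncoa2, Ncoa3, Ppargc1a and Ppargc1b, with overlap between Med1 and Nrip1 and between Ncoa2 and Ncoa3. Among all genes tested, Ncoa1 moved from the percentile 40.3 of mean FPKM on day 0 to 61.4 on day 8. Ppargc1b moved from 13.2 to 27.6, while Crebbp went from 62.2 to 48.7.

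Promoter sequence is shown for 4 of the 6 genes with an entry used here, chosen for their courses, the riser Ncoa1, the day 4 peak of Nrip1, the day 4 dip of Ppargc1a and the faller Crebbp. The 120 bases before each start site are given 5′ to 3′ from RefSeq on GRCm38.p6. Capitals mark GGGCGG (GC box), the CCAAT box, AGGTCA (receptor core site), TCAAGGTCA (ERR element, which contains the receptor core site), TGACG (cyclic AMP element core) and TTGCNNAA (C/EBP element), each searched on both strands.
Ncoa1, chr12:4477183-4477302, minus strand: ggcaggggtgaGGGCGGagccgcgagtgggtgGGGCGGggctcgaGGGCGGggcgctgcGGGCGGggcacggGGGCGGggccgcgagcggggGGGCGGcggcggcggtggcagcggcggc
Nrip1, inner start, chr16:76373050-76373169, minus strand: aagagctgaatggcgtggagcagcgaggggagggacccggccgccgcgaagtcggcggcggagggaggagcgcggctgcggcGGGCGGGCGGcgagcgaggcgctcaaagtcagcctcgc
Nrip1, outer start, chr16:76373828-76373947, minus strand: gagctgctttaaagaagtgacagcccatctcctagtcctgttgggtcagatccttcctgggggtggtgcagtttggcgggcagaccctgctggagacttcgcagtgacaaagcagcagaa
Ppargc1a, chr5:51567726-51567845, minus strand: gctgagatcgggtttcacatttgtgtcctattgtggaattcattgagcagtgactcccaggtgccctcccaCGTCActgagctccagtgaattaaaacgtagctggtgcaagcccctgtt
Crebbp, chr16:4213405-4213524, minus strand: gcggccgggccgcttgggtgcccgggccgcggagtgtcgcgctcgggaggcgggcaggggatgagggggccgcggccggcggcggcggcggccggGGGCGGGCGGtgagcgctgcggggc

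Within 250 bases before the start, Ncoa1 held 7 GC boxes, 6 of them in the stretch shown. A GC box was in 32.7% of 32851 promoters of that length, and 7 or more in 0.18%. The Ncoa1 window had a GC content of 85.6% and that of Crebbp, with 2 overlapping GC boxes, 84%. The inner start of Nrip1 had 2 overlapping GC boxes and the outer start no match. The Ppargc1a window was at 48% GC, and its single match was the cyclic AMP element core, read as CGTCA on the strand shown from base -49 to base -45, a motif found in 17.8% of promoters. Neither the receptor core site (14% of promoters) nor the ERR element (0.387%) was matched in the promoters of Ncoa1, Nrip1, Ppargc1a, Crebbp, Med1 or Ncor1. The Med1 window had 1 GC box and a CCAAT box, found in 33.8% of promoters. Of the 2 Ncor1 windows, 1 had a C/EBP element, found in 9.56%, and the other had 2 GC boxes. The letters are a description of these windows, and binding was not measured.

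The 9 genes were then set beside other coregulators. Of 72 listed coregulators, the 9 included, 70 were tested. In the early phase 15 rose and 27 fell, against 35.5% and 33.7% of all genes, with a median of -0.05 on the log2 scale. Over the whole process 16 rose and 31 fell, against 34.8% and 36.2%, with a median of -0.08. Past 2-fold there were 3 of the 70 in the early phase (Nrip1, Ppargc1b and Helz2), which was 4.29% against 17.8% of all genes, and 3 over the whole process (Ncoa1, Ppargc1b and Helz2), 4.29% against 18%. The median size of the change over the 70 was 0.22 early and 0.26 from day 0 to day 8, against 0.37 and 0.39 over all genes.

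Helz2, a helicase coactivator of PPAR-gamma also known as PDIP1, was the only one of the 70 to fall past 2-fold. It went from 13.39 ± 3.24 FPKM on day 0 to 3.223 ± 0.232 on day 4 and 2.593 ± 0.196 on day 8. The fall was 1.99 ± 0.13 early and 2.26 ± 0.13 over the whole process on the log2 scale (edgeR adjusted p = 7.3e-10 and 1.9e-10). It belongs to the 12 other receptor coactivators, of which 11 were tested, 2 rose (Ncoa4 and Smarcd3) and 4 fell (Asxl2, Helz2, Ncoa5 and Ncoa6) in the early phase, against 35.5% and 33.7% of all genes.

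The receptors that these proteins bind were listed as well. Of 22 receptors 18 were tested, and 10 rose and 7 fell in the early phase, against 35.5% and 33.7% of all genes. Past 2-fold 6 rose and 2 fell, against 9.77% and 7.98%. Pparg, the master regulator of fat cell formation, went from 11.52 ± 0.161 through 93.24 ± 6.41 to 129.7 ± 9.13 FPKM. It rose by 3.00 ± 0.07 early and 0.52 ± 0.06 late on the log2 scale (edgeR adjusted p = 4.0e-15 and 2.7e-06).

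Rxra, its dimer partner, peaked on day 4 as Nrip1 did, with 44.14 ± 1.1, 95.03 ± 4.97 and 52.21 ± 1.44 FPKM, and changed by 1.17 ± 0.05 early and -0.81 ± 0.05 late (edgeR adjusted p = 5.6e-12 and 2.1e-09). Nr1h3 (LXR-alpha) rose by 4.56 ± 0.12 early (edgeR adjusted p = 1.7e-14). The clock repressors Nr1d1 and Nr1d2 dipped on day 4 as Ppargc1a did, with early changes of -0.71 ± 0.05 and -1.51 ± 0.07 and late changes of 1.43 ± 0.05 and 1.15 ± 0.07 on the log2 scale (all 4 edgeR adjusted p at most 5.9e-09). Vdr, the vitamin D receptor, fell by 1.60 ± 0.09 in the late phase (edgeR adjusted p = 1.3e-09).

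Targets of the pathway were mostly called higher in the early phase. All 12 PPAR-gamma targets rose past 2-fold in the early phase, against 9.77% of all genes, with a median of 7.35 on the log2 scale. This list shares genes with the adipocyte markers above, among them Adipoq, Plin1 and Cidec, so the results of these lists are not separate. Adipoq (adiponectin) went from 0.5033 ± 0.194 to 466.6 ± 93.5 FPKM and Cidec, a lipid droplet protein, from 0.6833 ± 0.0777 to 773.3 ± 132. In the late phase 9 of the 12 rose and 1, Agpat2, fell, against 22.5% and 22.7% of all genes, with a median of 0.53. Pck1, the glyceroneogenic enzyme, was the only one past 2-fold there, at 4.53 ± 0.15 on the log2 scale (edgeR adjusted p = 1.7e-12).

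Of 17 PGC-1 partners and targets 15 were tested, and 11 rose in the early phase, 6 past 2-fold, against 35.5% and 9.77% of all genes, while Gabpa and Nrf1 fell, against 33.7%. The median was 0.93 early, 0.07 late and 0.91 from day 0 to day 8 on the log2 scale. Esrra (ERR-alpha), the receptor partner of PGC-1, rose from 13.92 ± 0.786 to 27.88 ± 2.8 FPKM, a change of 1.07 ± 0.07 (edgeR adjusted p = 1.4e-09). The mitochondrial genes Idh3a and Cycs rose by 2.02 ± 0.08 and 1.76 ± 0.09 early (edgeR adjusted p = 2.7e-12 and 3.0e-11). Acadm, of fatty acid oxidation, rose by 2.71 ± 0.06 early and fell by 0.81 ± 0.06 late (edgeR adjusted p = 3.5e-15 and 1.1e-08). Pdk4, a kinase that restrains glucose oxidation, rose by 1.41 ± 0.08 and then fell by 1.95 ± 0.08 (edgeR adjusted p = 1.5e-10 and 3.1e-11). These genes were mostly called higher on day 4, when Ppargc1a was at its lowest and Ppargc1b had risen. In the late phase, when Ppargc1a rose, 5 of the 15 were called higher and 4 lower, against 22.5% and 22.7% of all genes. A link with either gene was not tested.

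**Figure D4:**
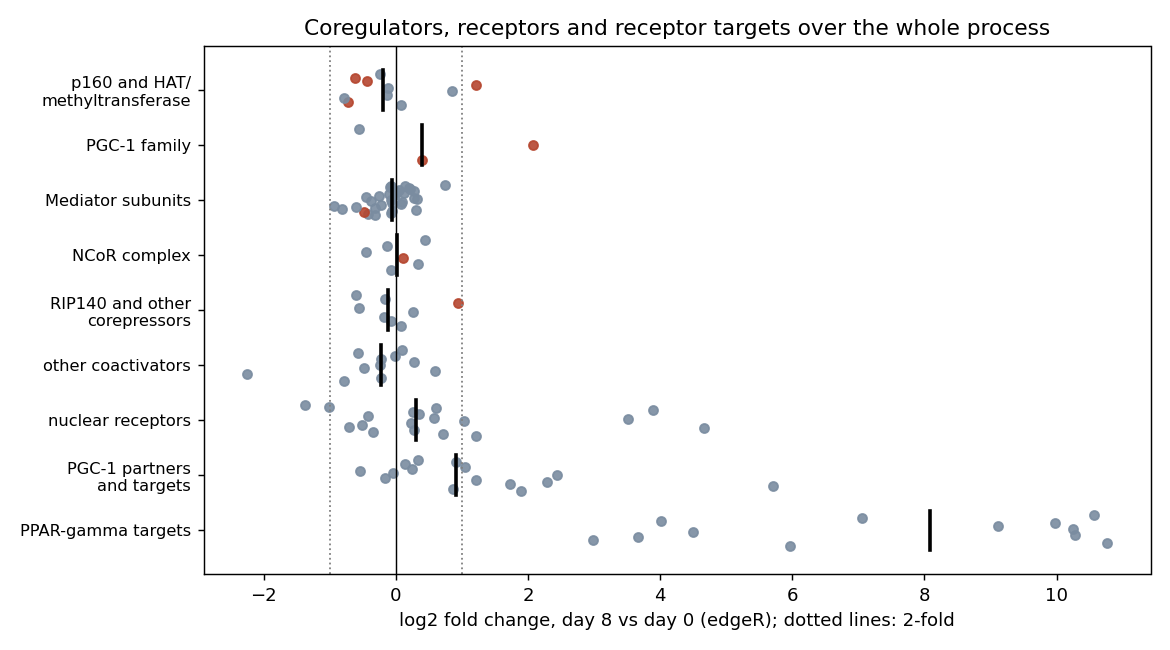
Each point is 1 gene of a list, placed by its log2 fold change from day 0 to day 8 (edgeR), with the 9 genes followed here in red, the list median as a black bar and dotted lines at 2-fold. Most coregulators lie between the dotted lines, with Ncoa1 at 1.21, Ppargc1b at 2.08 and Helz2 at -2.26 outside, while the 12 PPAR-gamma targets lie to the right with a median of 8.08.

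For the 3 genes past 2-fold, the genes with the most similar course over the 9 samples were sought among 11466 genes by Pearson's r of log2 CPM. Since the 9 points fall into 3 days, r mostly reflects the day means. Ncoa1 was closest to Cd302 (0.9995), 3930402G23Rik (0.9987) and Reep5 (0.9983), and 1239 genes reached 0.95. Nrip1 was closest to Galnt11 (0.9953), Plpp1 (0.9913) and Strip2 (0.9911), with 511 genes at 0.95. Ppargc1b was closest to the mitochondrial genes Atp5j2 (0.9974), Slc25a5 (0.9968) and Ppif (0.9959), with 1149 genes at 0.95. Slc25a5, the adenine nucleotide translocator, went from 166.1 ± 15 through 358.5 ± 28.7 to 367.3 ± 4.63 FPKM. Among the 9 genes themselves, r was -0.990 for Ncoa1 with Crebbp, 0.983 for Ncoa3 with Crebbp, 0.964 for Ncoa1 with Ppargc1b and 0.932 for Ncor1 with Ppargc1a.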

How the data were processed

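RNA-seq of 9 samples (3 days, 3 replicates) was used. The authors removed low-quality, adaptor and unknown-base reads, aligned the rest with HISAT/Bowtie2 and quantified genes with RSEM. The submitters' processing notes also name CASAVA 1.4. The genome build is not given in the sources used here. The deposited expected counts are RSEM estimates without normalization (29.8% were not whole and were rounded), and the deposited FPKM values are scaled by the authors to length and depth. RSEM shares reads between similar transcripts, and at most 1.14% of the 50-base stretches of a followed gene, Ncor1, occurred in another gene.

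Rounded counts were fitted over all 13154 genes left by edgeR's filterByExpr, with TMM factors, all 9 samples and a coefficient per day (edgeR 4.0.16, R 4.3.3, quasi-likelihood test). P-values were adjusted by Benjamini-Hochberg over all genes, with thresholds of 0.05 and 2-fold. FPKM gave levels, shares and ratios. The fit was also run on simulated data, and the outcome is not reported here. Alternatives used limma 3.58.1 and DESeq2 1.42.0. Spreadsheet-altered date symbols (26) were restored from gene IDs, and 19040 IDs matched the reference table. No promoter entry was used here for Ncoa2, Ncoa3 and Ppargc1b, either because the promoter table had none or because the entry was left out. The labels' extraction text and library kit differ from the study's methods, which describe cultured cells and an Illumina sequencer. Replicate pairs of a day differed by more than sampling noise.

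The 9 genes and the lists were chosen with earlier results of these data known. Named genes were the 9, fixed partners, markers, up to 4 genes of each list past 2-fold and not under 1 in average log2 CPM, and the 3 most similar genes. List members named for small counts, and Kat2b, were chosen after their values were seen. Some items are not reported here.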

Additional observations from a re-analysis of the deposited data

How the results depend on the processing

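The 9 genes had 666 values under an alternative, and 629 kept their direction and their side of the 0.05 threshold on adjusted p. Another 18 lost the call, 15 gained it and 4 changed sign. Moves across 2-fold were not counted here. The sign changes were Ncor1 over the whole process (0.10), at -0.01 with library size alone and at -0.03 with limma on log2(FPKM + 1) and on log2(FPKM + 0.1), and Ppargc1b in the late phase (0.08), which ranged from -0.01 (without day 4 replicate 1) to 0.18 when samples were left out. Ctbp1 over the whole process also turned, from 0.08 to -0.03, with library size alone and with both limma fits. Library size alone moved the median of all genes to -0.13 over the whole process and limma on log2(FPKM + 0.1) moved it to -0.12. The early call of Ncor1 was lost without the filter (adjusted p = 0.0528) and without day 0 replicate 1, day 0 replicate 3 or day 4 replicate 2 (0.0906, 0.064 and 0.057). The late call of Ncoa3 was lost without day 4 replicate 1, day 4 replicate 2 or day 8 replicate 2 (0.0639, 0.136 and 0.0971). The day 4 contrast of Crebbp kept its call under 9 of 17 alternatives, and that of Med1 was lost with both limma fits (adjusted p = 0.163 and 0.167) and without day 4 replicate 2 (0.0607). The cause was not tested.

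Genes of the 9 called lower in the late phase numbered 5, not 3, with library size alone and with limma on log2(FPKM + 0.1). Past 2-fold in the late phase there was 1 (Ppargc1a) with RLE factors or DESeq2, and 0 to 1 when samples were left out. Over the whole process limma on log2(FPKM + 1) left 1, not 2, past 2-fold, and leaving out samples gave 2 to 3 (3 without day 0 replicate 3, with Nrip1 at 1.02). Genes called higher there numbered 5, not 4, with Ncor1 added, with RLE factors, DESeq2, a minimum of 10 counts, only the 2 days compared and without each day 4 replicate in turn or day 8 replicate 1. Against the mean of the ends, both limma fits called 2 lower, not 4, and leaving out samples gave 0 to 1 past 2-fold. For all genes past 2-fold, limma on log2(FPKM + 1) gave 1273 early, 360 late, 1281 over the whole process and 470 against the mean of the ends, since the pseudocount shrinks low genes, and a minimum of 10 counts in every sample, which tests fewer genes, gave 483 late and 625 against the mean of the ends. The day 4 to day 0 ratio of Ncor1 was 0.9215 in CPM. In TMM-scaled CPM per kilobase, chosen after seeing the data, the p160 sum relative to day 0 was 1.04 on day 4 and 1.079 on day 8, against 0.9931 and 0.9981 in FPKM, and the PGC-1 sum on day 8 was 1.822, against 1.695.

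The replicate numbers gave little sign of pairing the samples. Each gene's day mean was first taken off its log2 CPM. What was left correlated at -0.0348 to 0.075 between same-numbered samples of different days. The mean was 0.031, against -0.015 for samples with other numbers. Of the 9 samples, 4 correlated best with their own number on both other days, so these values do not settle whether the samples were weakly paired. With the replicate block, 9131 genes were called early, 5993 late and 9317 over the whole process, and no call of the 9 genes changed (Ncor1 early, adjusted p = 0.0394). The exact test and the fit on only the 2 days compared cannot give the contrast against the mean of the ends. Depth limits Ppargc1b most, at 46 to 63 counts per day 0 sample.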
